A study of Mus musculus with 20 samples.

Results

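The 9 genes described here encode parts of the complement system: the 3 chains of C1q (*C1qa*, *C1qb*, *C1qc*), the C1 proteases (*C1s1*, *C1ra*), the central components *C3* and *C4b*, the C1 inhibitor (*Serping1*) and the C3a receptor (*C3ar1*). They were chosen by name from 35580 genes, and *C1s1* was selected on its low level in miR-324-null neocortex, so genotype differences in the neocortex, and their contrast with the hippocampus, are given below as a description with no test, as are the tissue differences of *C1s1*, which use the same neocortex libraries. All 9 passed the filter on low counts in each comparison, *C3* between WT tissues only through its hippocampus libraries. RNA was sequenced as stranded mRNA libraries from 20 samples, 5 of each genotype (WT and miR-324-null) in each tissue (hippocampus and neocortex, the latter labelled cerebral cortex), taken from male C57BL/6J mice aged 13.5 months. The null animals carried a deletion of *Mir324* in all cells, made with CRISPR. The founders were of mixed C57BL/6 and CBA/ca background and were backcrossed onto C57BL/6J, and the WT and null lines were bred from heterozygous parents. Nothing in the sources used here says which hippocampus and neocortex samples came from 1 mouse. Estimated counts of a library summed to between 12752439 and 19617765. *Mir324* itself is too short for these libraries and was left out, which leaves the genotype labels unchecked by the deleted gene.

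Complement is a cascade of plasma and tissue proteins. C1q recognises a target and activates C1r and C1s, which cleave C4 and C2, and the enzyme that forms cleaves C3. Fragments of C3 and C4 tag surfaces for uptake by phagocytes, and the small fragment C3a signals through its receptor. In the brain C1q is made chiefly by microglia and C4 largely by astrocytes, and the classical pathway is known for its part in the removal of synapses.

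The sequences that bear on these measurements are the arms of the deleted microRNA and the stretches that *C1s1* shares with its copy. The mature arms of miR-324 are given first, from RefSeq (GRCm38.p6, chromosome 11, plus strand), with the seed (bases 2 to 8) in capitals.
miR-324-5p: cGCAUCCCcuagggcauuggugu
miR-324-3p: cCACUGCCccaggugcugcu
A match to the 5p seed (GGGATGC) was present in the longest annotated 3′UTR of 8.05% of 21144 genes, and a match to the 3p seed (GGCAGTG) in 14.0%. Over the 9 complement genes, each read in its longest annotated 3′UTR, 1 match was found for the 5p arm and 0 for the 3p arm. The match lay in C4b-202, a transcript annotated for nonsense-mediated decay, and the seed match is in capitals.
C4b-202: ttttgatttagGGGATGCtgtgtctaaga

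*C1s1* (chromosome 6, 124530345 to 124542359, minus strand, GRCm38) has a near-identical neighbour, *C1s2* (124624625 to 124636085, the same strand). The transcripts compared were 95.9% identical over 2643 aligned columns, with 107 mismatches, and 33.5% of the 31-base words of *C1s1* also occurred in *C1s2*. The 90 bases below, bases 585 to 674 of the *C1s1* transcript and 359 to 448 of the *C1s2* transcript, show how few positions tell a read of one from the other, with the 4 mismatched bases in capitals.
C1s1: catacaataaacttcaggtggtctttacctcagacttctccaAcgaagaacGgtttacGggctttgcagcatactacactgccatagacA
C1s2: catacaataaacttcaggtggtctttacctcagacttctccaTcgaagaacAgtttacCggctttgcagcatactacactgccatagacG
*C1ra* shared 56.9% of its words with *C1rb* (97.9% identity). *C4b* shared 48.3% with *C4a* (95.9% identity), which was not among the transcripts analysed here. No 31-base word was shared with another gene by *C1qa*, *C1qb*, *C1qc*, *C3* or *Serping1*. *C1s1* also shared 15.5% of its words, read on either strand, with *Gm16567*, which was not among the transcripts analysed here. *C1ra* shared 6.44% with *Gm18840*. Kallisto divides reads that fit several transcripts among them by estimation, so the levels of *C1s1* and *C1ra* are uncertain to that extent. Any *Gm16567* reads in the shared sequence may have been counted as *C1s1*. With no *C4a* transcript to take a share, any *C4a* reads in the shared sequence would have been counted as *C4b*. The level of *C4b* may therefore include *C4a*.

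Levels between genes are compared in TPM, which is scaled to transcript length. In WT hippocampus *C1qb* (92.8 ± 5.82 TPM, SD, n = 5) and *C1qa* (92.6 ± 9.76) stood highest and did not differ beyond their spread. *C1qc* followed at 71.3 ± 4.82 TPM and *C4b* at 41.0 ± 5.16 TPM. Of the *C4b* level, 13.4 TPM came from C4b-203, a retained-intron transcript of 749 bases with a mean of 67.7 estimated counts. The coding C4b-201 held 24.8 TPM. *Serping1* stood at 8.34 ± 2.87 TPM, and *C3*, *C1s1*, *C1ra* and *C3ar1* lay between 0.829 and 2.45 TPM. In WT neocortex the C1q chains again led, *C4b* stood at 17.8 ± 3.17 TPM, and *C1s1* (6.97 ± 2.22), *C1ra* (5.71 ± 0.587) and *Serping1* (5.24 ± 1.84) overlapped. *C3* was lowest there, at 0.623 ± 0.335 TPM. Within 1 gene, levels below are TMM-scaled CPM, estimated counts scaled to a common library size.

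The tissue labels held against their markers: the 8 neocortical neuron markers summed to 504 to 563 TPM in WT neocortex and to 101 to 140 TPM in WT hippocampus. The 12 microglia markers summed to 325 to 396 TPM in WT hippocampus, 317 to 348 in miR-324-null hippocampus, 311 to 354 in WT neocortex and 271 to 372 in miR-324-null neocortex, and none had a group mean under 1 TPM. Of the 5 border macrophage markers, 3 or 4 had a group mean under 1 TPM. The 6 choroid plexus markers stood apart in 3 libraries. *Ttr*, the most abundant of them, lay between 1250 and 6806 TPM in WT hippocampus replicate 3, miR-324-null hippocampus replicate 5 and miR-324-null neocortex replicate 2, and at most at 165 TPM in the other libraries. In miR-324-null neocortex the neocortical markers summed to 367 to 630 TPM, the 8 hippocampal neuron markers to 108 to 207 against 103 to 132, and the 7 striatal neuron markers to 220 to 547 against 141 to 325. These libraries are of bulk tissue, in which fewer cells of a type and less RNA per cell cannot be told apart.

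In the hippocampus, none of the 9 genes was DE between genotypes at an adjusted p of 0.05, and the lowest adjusted p belonged to *C1qb*. C1q is built from 3 chains, whose genes lie side by side on chromosome 4 on the minus strand. *C1qb* read 55.7, 56.8, 48.5, 47.3 and 50.9 CPM in WT replicates 1 to 5 and 40.0, 42.1, 41.0, 43.2 and 43.5 CPM in miR-324-null ones. Every null library lay below every WT library, as they did for 1.18% of 14796 genes. The log2 fold change was -0.31 (95% interval -0.44 to -0.17, adjusted p = 0.105 by the quasi-likelihood test of edgeR, Benjamini-Hochberg adjustment). DESeq2 called it (adjusted p = 0.00434), as did edgeR on all 20 libraries (adjusted p = 0.0351). Those fits called 0.939% of 14796 and 0.539% of 15391 genes, against 0.115% of 14796 in the main fit.

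*C1qc* read 51.1, 47.7, 42.2, 41.3 and 42.7 CPM in WT and 36.9, 39.4, 36.3, 38.9 and 39.8 CPM in miR-324-null hippocampus. Its groups also did not overlap, with a log2 fold change of -0.24 (95% interval -0.38 to -0.09, adjusted p = 0.275 in the same edgeR test). *C1qa* read 58.0, 53.1, 47.4, 41.1 and 45.8 CPM in WT and 44.4, 57.5, 43.9, 41.4 and 50.8 CPM in miR-324-null hippocampus. These groups overlapped, and the log2 fold change was -0.05 (95% interval -0.28 to 0.18, adjusted p = 0.914 in edgeR). The 12 microglia markers were all below 0 in this comparison, with a median log2 fold change of -0.13 and none DE. This was not particular to them. All 5 oligodendrocyte (median -0.12), 4 pericyte (-0.07), 5 blood (-0.28), 7 striatal (-0.25) and 5 tested choroid plexus markers (-0.36) were below 0 too. Each other list held markers above 0, and of 6 neuron markers only 1 was below 0 (median 0.13). The part of the microglia markers in the lower *C1qb* and *C1qc* was not tested.

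**Figure D1:**
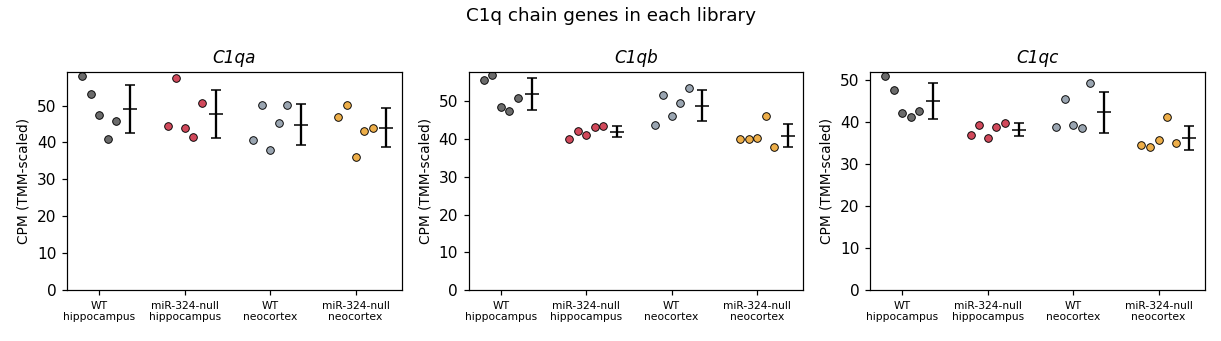
Levels of *C1qa*, *C1qb* and *C1qc* in CPM in each library of the 4 groups, with points in replicate order and the mean and SD (n = 5) beside them. In the hippocampus all 5 miR-324-null libraries sit below all 5 WT libraries for *C1qb* and *C1qc*, and the groups of *C1qa* overlap.

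Since the chains assemble in equal numbers, the share of each in their summed TPM was compared. In the hippocampus *C1qb* held 36.2% ± 1.20 (SD, n = 5) of it in WT libraries and 33.3% ± 1.86 in null ones, a difference of -2.84 percentage points (two-sided exact permutation test, p = 0.0159, adjusted p = 0.143 over 9 tests). *C1qa* held 36.0% ± 1.41 and 39.7% ± 2.93, a difference of 3.72 points (two-sided exact permutation test, p = 0.0317, adjusted p = 0.143). *C1qc* held 27.8% ± 0.567 and 26.9% ± 1.11 (exact permutation test, adjusted p = 0.476). No share passed the threshold after adjustment, and between tissues the shares differed by at most 0.888 points, with adjusted p of 0.830 or above in the exact tests.

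**Figure D2:**
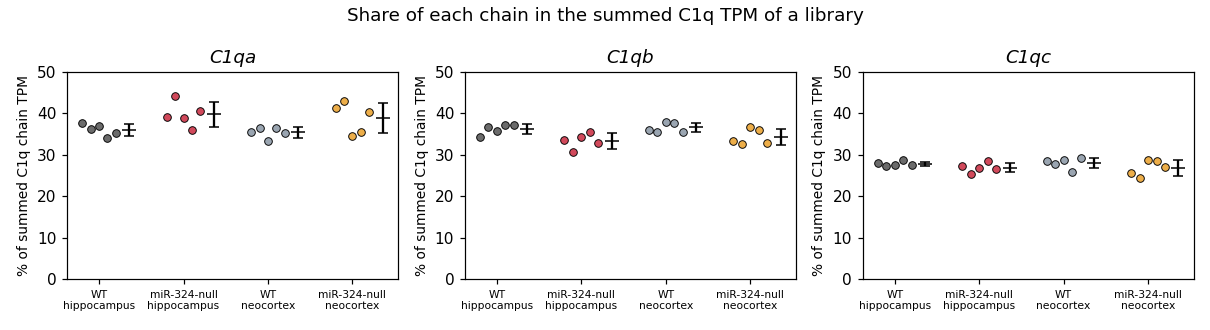
Share of each C1q chain, in percent of their summed TPM, in each library, with the mean and SD (n = 5). *C1qb* lies between 34.3% and 37.2% in WT hippocampus and between 30.6% and 35.6% in miR-324-null hippocampus.

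Promoter sequence was read for *C1qb* and *C1qc*, whose levels followed each other most closely. Over the 20 libraries the Pearson r of log2 CPM between them was 0.93, and 0.86 after the group means were removed. Each line gives 250 bases before and 50 after the gene's start (RefSeq, GRCm38.p6, chr4:136886151-136886450 and chr4:136892865-136893164, minus strand), with matches to GAGGAA or its reverse complement TTCCTC, the core bound by PU.1 and its relatives, in capitals.
C1qb promoter: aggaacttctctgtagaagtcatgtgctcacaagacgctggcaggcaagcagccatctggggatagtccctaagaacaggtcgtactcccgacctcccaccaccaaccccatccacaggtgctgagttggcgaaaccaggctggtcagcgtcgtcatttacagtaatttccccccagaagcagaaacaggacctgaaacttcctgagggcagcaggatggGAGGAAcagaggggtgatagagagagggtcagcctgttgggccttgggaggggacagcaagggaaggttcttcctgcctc
C1qc promoter: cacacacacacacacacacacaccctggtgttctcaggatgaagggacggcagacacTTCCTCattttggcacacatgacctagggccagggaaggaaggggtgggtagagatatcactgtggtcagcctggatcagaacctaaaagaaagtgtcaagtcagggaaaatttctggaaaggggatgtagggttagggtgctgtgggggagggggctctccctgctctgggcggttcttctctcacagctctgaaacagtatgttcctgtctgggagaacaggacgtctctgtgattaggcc
Each window held 1 match, as did that of *C1ra*, and 28.3% of 32851 promoters of that length held at least 1. The windows of *C1s1*, *C3* and *C3ar1* held none, and those of *C1qa*, *C4b* and *Serping1* were not read.

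Between tissues no C1q chain was DE. The log2 fold change of hippocampus over neocortex lay between 0.09 and 0.13 in WT and between 0.05 and 0.12 in miR-324-null samples, with adjusted p of at least 0.330 in edgeR. In the neocortex, where no test is given, *C1qb* read 43.6, 51.7, 46.0, 49.5 and 53.5 CPM in WT and 40.0, 40.1, 40.4, 46.0 and 37.8 CPM in miR-324-null libraries. The difference was -0.25 on the log2 scale for *C1qb*, with overlapping groups. *C1qc* read 38.9, 45.6, 39.4, 38.5 and 49.4 CPM in WT and 34.6, 34.1, 35.9, 41.1 and 35.1 CPM in null neocortex, a difference of -0.22. *C1qa* lay between 38.1 and 50.2 CPM in WT and between 36.1 and 50.1 CPM in null neocortex, a difference of -0.02.

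*C1ra* was lower in WT hippocampus than in WT neocortex, and *C1s1*, given as a description, stood lower too. *C1s1*, whose product cleaves C4 and C2, read 5.84, 6.51, 4.54, 9.10 and 5.69 CPM in WT neocortex and 0.846, 0.839, 2.08, 1.49 and 0.984 CPM in WT hippocampus. The groups did not overlap, and the level in the hippocampus was 5.04-fold lower (log2 fold change -2.33, standard error 0.26). *C1ra*, whose product activates C1s, read 10.5, 9.62, 9.07, 10.8 and 9.12 CPM in WT neocortex and 2.93, 1.55, 4.67, 2.75 and 2.65 CPM in WT hippocampus. It was 3.36-fold lower there (log2 fold change -1.75, 95% interval -2.19 to -1.31, adjusted p = 1.73e-05 in edgeR). In WT, 13.3% of all genes were lower in every hippocampus library than in every neocortex library.

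In miR-324-null samples *C1ra* was again DE, at 6.37, 6.71, 7.12, 5.71 and 9.38 CPM in the neocortex and 3.12, 3.67, 2.03, 2.68 and 3.30 CPM in the hippocampus (log2 fold change -1.25, 95% interval -1.64 to -0.86, adjusted p = 0.000237 in edgeR). These groups did not overlap, as for 10.6% of all genes in that direction. *C1s1* overlapped between the tissues of null samples, with a log2 fold change of -0.72 (standard error 0.27), again with no test.

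In the neocortex the contrast that chose *C1s1* read 5.84, 6.51, 4.54, 9.10 and 5.69 CPM in WT and 1.68, 3.08, 2.79, 2.91 and 2.55 CPM in miR-324-null libraries. All null libraries lay below all WT libraries, as for 1.13% of 14930 genes, and the difference was -1.26 on the log2 scale (standard error 0.20), 2.39-fold lower. Of the 9 genes 1 passed the threshold in this contrast, beside 0.315% of all genes, and nothing is read from that count because the choice rested on it. In the hippocampus *C1s1* read 2.42, 1.30, 1.23, 0.894 and 2.09 CPM in null libraries, which overlapped the WT ones (log2 fold change 0.34, 95% interval -0.38 to 1.07, adjusted p = 0.753 in edgeR). The genotype difference in the hippocampus exceeded that in the neocortex by 1.61 on the log2 scale (standard error 0.39), given with no test. *C1s1* was not among the 0.0195% of all genes that passed for such a contrast.

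The copy *C1s2* stayed low. It read 0.476, 1.01, 0.394, 1.55 and 0.343 CPM in WT neocortex and 0, 0.505, 0.712, 0.275 and 0.217 CPM in miR-324-null neocortex. With *C1s1* and *C1s2* summed, the genotype difference in the neocortex was -1.24 and the tissue difference in WT -2.14 on the log2 scale, close to those of *C1s1* alone. With an offset for transcript length the genotype difference was -1.10, and with the neocortical marker score as a covariate, chosen after the data were seen, -1.17. Beside this difference, the median summed level of the neocortical markers was 454 TPM in null and 531 TPM in WT neocortex, that of the striatal markers 269 and 163 TPM and that of the hippocampal markers 156 and 125 TPM, and their part in it was not tested beyond that covariate. *C1ra* differed by -0.47 on the log2 scale in the same contrast, with overlapping groups, and by -0.28 with the covariate. Between genotypes in the hippocampus *C1ra* differed by 0.02 (95% interval -0.55 to 0.58, adjusted p = 0.987 in edgeR).

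**Figure D3:**
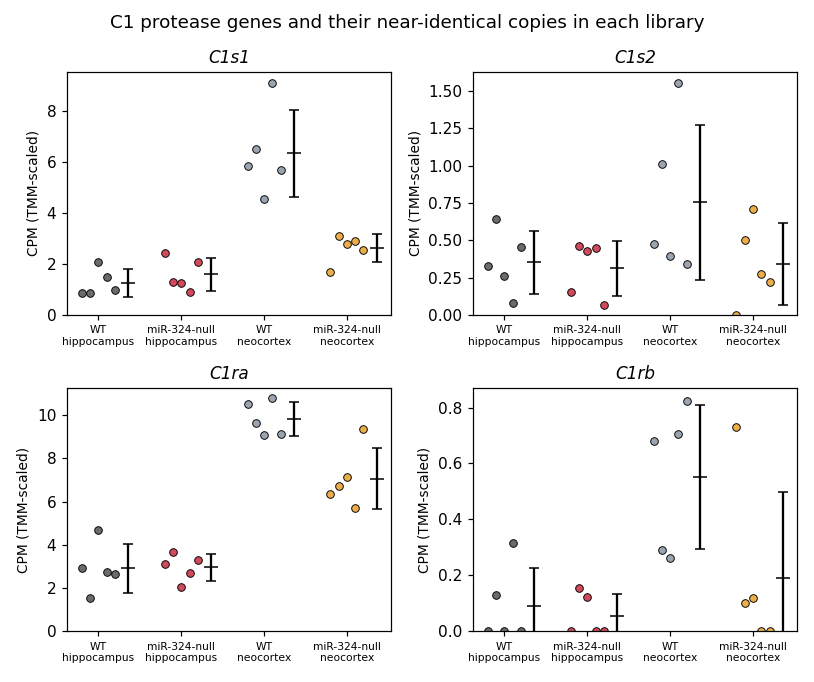
Levels of *C1s1*, *C1s2*, *C1ra* and *C1rb* in CPM in each library, with the mean and SD (n = 5). *C1s1* and *C1ra* are lower in WT hippocampus than in WT neocortex in every library, and both copies stay at or below 1.55 CPM.

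By likeness over the 20 libraries, the genes nearest to *C1s1* in log2 CPM, among 14367 with a mean of at least 1 CPM, were *Frmd6* (Pearson r 0.90), *C1ra* (0.88), *Mxra7* (0.87), *Vasn* (0.87) and *Cacna1i* (0.87). After group means were removed they were *Cfap65*, *Zfp710*, *Vangl1*, *2810039B14Rik* and *Pih1d2* (r 0.72 to 0.75), none of them in the first list. For *C1qb* the nearest after *C1qc* were *Pctp* (0.88), *Mrpl27* (0.85), *Cyp2d22* (0.84) and *Lag3* (0.83), and after removal of group means *C1qc* (0.86), *Mroh2a*, *Plcg2*, *Rfx4* and *Ttyh1* (0.72 to 0.76). These values share libraries and their depth, and are a description.

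*C4b*, the substrate of C1s, was higher in the hippocampus in both genotypes. It read 27.8, 28.0, 37.3, 26.2 and 39.0 CPM in WT neocortex and 81.9, 91.0, 98.3, 84.6 and 75.5 CPM in WT hippocampus, 2.72-fold higher (log2 fold change 1.45, 95% interval 1.20 to 1.69, adjusted p = 4.59e-07 in edgeR). In null samples it read 35.1, 45.4, 34.3, 41.1 and 21.8 CPM in the neocortex and 94.3, 97.9, 80.4, 89.6 and 109 CPM in the hippocampus, 2.67-fold higher (log2 fold change 1.42, 95% interval 1.08 to 1.75, adjusted p = 3.28e-05 in edgeR). Its groups did not overlap in either genotype, as for 13.2% of genes in WT and 10.4% in null samples in that direction. *Gfap*, an astrocyte marker, lay between 224 and 309 TPM in WT hippocampus and between 64.0 and 83.4 TPM in WT neocortex. The list of 7 astrocyte markers that holds it did not differ as far. It summed to 2079 to 2333 TPM in WT hippocampus and to 1970 to 2025 TPM in WT neocortex. Its median log2 fold change was 0.20, with 2 of 7 markers below 0. The part of these markers in the level of *C4b* was not tested. Between genotypes *C4b* differed by 0.13 in the hippocampus (95% interval -0.06 to 0.32, adjusted p = 0.625 in edgeR) and by 0.17 in the neocortex, with no test there. The neocortex difference turned to -0.12 with a length offset, in edgeR and in DESeq2, and to -0.22 with the neocortical marker covariate, so no direction is given for it.

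*C3*, whose cleavage is the step on which the pathways meet, was low and uneven. It read 0.272, 0.651, 0.329, 0.635 and 1.03 CPM in WT neocortex and 0.846, 2.06, 5.52, 1.26 and 0.908 CPM in WT hippocampus. The ranges overlapped, and *C3* was 3.66-fold higher in the hippocampus (log2 fold change 1.87, 95% interval 0.66 to 3.08, adjusted p = 0.0190 in edgeR). Its estimated counts were 4 to 15 in WT neocortex and 12 to 85 in WT hippocampus, so *C3* passed the filter through the hippocampus, where it is high. Its adjusted p-values between WT tissues are therefore not read as support for a difference. The highest WT library was hippocampus replicate 3, where *Ttr* was also highest, while the highest of all 20 was miR-324-null hippocampus replicate 2, at 6.19 CPM of *C3* and 165 TPM of *Ttr*. Without the 3 libraries of high *Ttr* the log2 fold change was 1.14 (adjusted p = 0.0438 in edgeR). In null samples it was 0.89 (adjusted p = 0.192) and 1.62 (adjusted p = 0.0191) without those libraries, by edgeR. Between genotypes *C3* read 3.20, 6.19, 4.06, 1.64 and 3.03 CPM in null hippocampus, a log2 fold change of 0.75 (95% interval -0.31 to 1.82, adjusted p = 0.603 in edgeR), and 1.55 without those libraries (adjusted p = 0.251). With an offset for transcript length it was 0.06 in edgeR (adjusted p = 0.984) and 0.08 in DESeq2 (adjusted p = 0.988). In null neocortex it read 1.24, 4.75, 1.90, 1.21 and 0.597 CPM, a difference of 1.76 on the log2 scale, and 1.08 without miR-324-null neocortex replicate 2. That difference was 0.78 with the length offset in edgeR, 0.80 with it in DESeq2 and 0.56 with the neocortical marker covariate.

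*Serping1*, the inhibitor of C1r and C1s, read 7.47, 4.12, 4.27, 2.89 and 6.10 CPM in WT neocortex and 8.65, 5.81, 12.3, 5.58 and 6.51 CPM in WT hippocampus. The log2 fold change was 0.65 (95% interval 0.07 to 1.22, adjusted p = 0.0760 in edgeR). DESeq2 called it (adjusted p = 0.0488), as did edgeR without WT neocortex replicate 1 (adjusted p = 0.0268), and without the libraries of high *Ttr* it was 0.43 (adjusted p = 0.199). Its highest values, 12.3 and 12.5 CPM, lay in the hippocampus libraries of high *Ttr*, where the 7 meningeal fibroblast markers summed to 217 and 179.5 TPM, against at most 152 TPM elsewhere, and their part was not tested. Between genotypes in the hippocampus *Serping1* read 4.29, 4.74, 6.52, 6.85 and 12.5 CPM in null libraries, overlapping the WT ones (log2 fold change -0.15, 95% interval -0.79 to 0.48, adjusted p = 0.891 in edgeR). In the neocortex its difference was 0.00 on the log2 scale, and -0.51 with the neocortical marker covariate, with null libraries between 2.33 and 6.22 CPM.

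*C3ar1*, the receptor for C3a, read 2.65, 2.53, 2.96, 3.03 and 3.57 CPM in WT neocortex and 2.67, 2.52, 1.36, 2.12 and 2.04 CPM in WT hippocampus (log2 fold change -0.46, 95% interval -0.87 to -0.05, adjusted p = 0.0773 in edgeR). In null neocortex it read 2.27, 2.32, 1.78, 2.53 and 2.39 CPM, a difference of -0.38 on the log2 scale, with no test. All lay below the WT libraries, as for 1.13% of 14930 genes, but only just. The highest null library stood at 2.526 CPM and the lowest WT library at 2.531 CPM. In null hippocampus it read 1.48, 2.60, 2.09, 2.16 and 1.82 CPM, overlapping WT (log2 fold change -0.08, 95% interval -0.55 to 0.39, adjusted p = 0.931 in edgeR). Between tissues of null samples neither *C3ar1* (-0.15, adjusted p = 0.599) nor *Serping1* (0.51, adjusted p = 0.249) passed in edgeR.

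**Figure D4:**
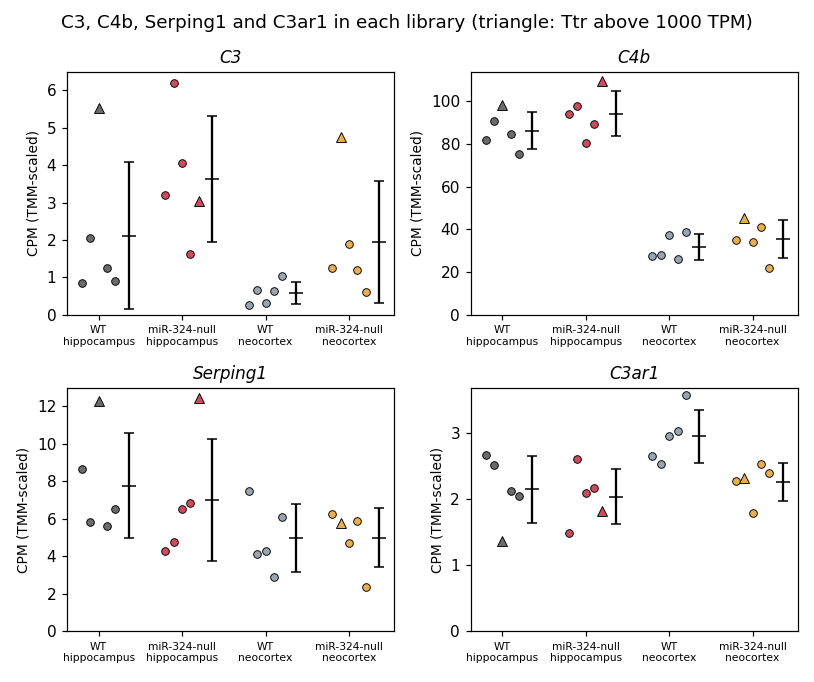
Levels of *C3*, *C4b*, *Serping1* and *C3ar1* in CPM in each library, with the mean and SD (n = 5) and triangles for the 3 libraries with *Ttr* above 1000 TPM. *C4b* is higher in every hippocampus library, and the triangles hold the highest *C3* of WT hippocampus and the highest *Serping1* of both hippocampus groups.

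In all, 0 of 9 complement genes were DE between genotypes in the hippocampus by edgeR, beside 0.115% of 14796 genes. At an unadjusted p under 0.05 stood 2 of 9 and 1635 of 14796. DESeq2 called 1 of 9 there, beside 0.939% of 14796 genes. Between tissues 4 of 9 lay under the threshold in WT by edgeR, beside 36.1% of 14894 genes, and 2 of 9 in null samples, beside 27.4% of 15033. The 4 hold *C1s1*, which is given no test between tissues and is not read as passing. They also hold *C3*, which passed the filter there only through the hippocampus. With 9 genes, these counts are no result about the group beside shares of that size. The median log2 fold change of the 9 was -0.05 between genotypes in the hippocampus, 0.09 between tissues in WT and 0.09 in null samples, beside medians of 0.0012, -0.00077 and 0.0081 over all genes.

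**Figure D5:**
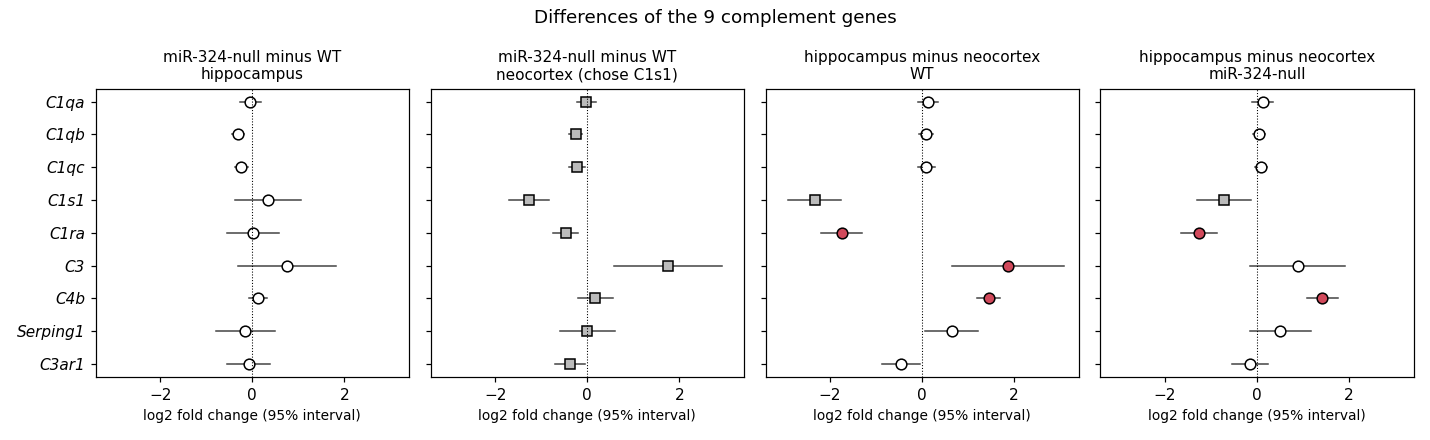
Log2 fold change with its 95% interval for each of the 9 genes in 4 comparisons. Red circles have an adjusted p of at most 0.05, white circles do not, and grey squares have no test: the contrast that chose *C1s1*, and *C1s1* between tissues. *C1s1* and *C1ra* lie left of 0 and *C3* and *C4b* right of 0 between WT tissues.

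A wider list of 52 complement genes gave 51 in the files, of which 33 passed the filter in at least 1 comparison. Between genotypes 0 of 29 were DE in the hippocampus by edgeR (3 at an unadjusted p under 0.05, 0 by DESeq2) and 0 of 30 in the neocortex (4), where DESeq2 called *Sez6*. Of all genes, 0.115% and 0.315% were DE by edgeR, 11.1% and 12.2% had such an unadjusted p, and DESeq2 called 0.939% and 1.61%. Between WT tissues 10 of 28 were DE, 5 higher and 5 lower in the hippocampus, beside 36.1% of all genes. In null samples 8 of 32 were DE, 5 higher and 3 lower, beside 27.4% of all genes. These counts are no result about the list beside shares of that size. Regulators made up 18 of the 33 genes tested, and the 5 higher genes in each genotype and 4 of the 5 lower ones in WT were on their list. *Clu*, the chaperone clusterin, had a log2 fold change of 0.34 in WT (standard error 0.06, adjusted p = 0.000411 in edgeR), and *Sez6l*, a brain membrane protein with complement control repeats, of 0.56 (standard error 0.07, adjusted p = 5.47e-05 in edgeR). *C1qbp*, a binding protein of the C1q globular heads, and *Susd4*, a membrane protein with complement control repeats, were higher in both genotypes, by 0.19 and 0.19 in WT (adjusted p = 0.0142 and 0.0117 in edgeR) and by 0.30 and 0.25 in null samples (adjusted p = 0.00278 and 0.00541 in edgeR). *Masp1*, a protease of the lectin pathway, was lower in the hippocampus by -0.81 in WT and -0.53 in null samples (adjusted p = 0.000257 and 0.00100 in edgeR). Both *Csmd1* and *Csmd2*, which also carry complement control repeats, were lower in both genotypes, calls that were lost in edgeR with an offset for transcript length, and that of *Csmd1* in null samples was also lost in 7 of 10 fits that left out a library. *Srpx2*, *Sez6* and *Cd46* were DE in WT samples, and *C4bp* in null samples, and the call of *Cd46* was lost in 8 of 10 fits that left out a library. In the interaction of genotype and tissue 0 of 33 passed by edgeR and 0 by DESeq2, beside 0.0195% and 0.0715% of all genes. At an unadjusted p under 0.05 in edgeR stood 2 of 33, beside 857 of 15391 genes. Of the receptors, *Itgam* and *Itgb2*, the subunits of complement receptor 3, stood at 9.04 ± 0.542 and 3.97 ± 0.487 TPM in WT hippocampus, *Cd93* stood at 2.73 ± 0.415 TPM, and no receptor was DE. Of the terminal pathway *C8g* was highest, at 2.97 ± 1.10 TPM, followed by *Hc* at 0.677 ± 0.635 and *C7* at 0.190 ± 0.0743 TPM. Of the alternative pathway *Cfp*, properdin, stood at 12.4 ± 4.73 TPM and *Cfb* at 4.29 ± 0.630 TPM, and *Cfd* was listed at 0. Beside *Masp1*, *Colec12* (4.75 ± 1.08 TPM) and *C2* (3.94 ± 1.33 TPM) were the highest of the classical and lectin list, and beside *Clu*, *Sez6l2* (242 ± 10.02 TPM) and *Susd4* (96.8 ± 7.19 TPM) were the highest regulators.

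Transcripts of 1 gene were compared by the share of the leading one in the gene's TPM, for *C1s1*, *C3*, *C4b* and *Serping1*. No share passed the threshold over 12 two-sided exact permutation tests, and the lowest adjusted p was 0.286 (exact permutation test). The shares of *C1s1* and *C3* rest on short transcripts with few counts, and had SDs of up to 34.4 percentage points. C4b-201, which codes for protein, held 60.8% ± 7.32 of *C4b* TPM in WT hippocampus and 50.6% ± 8.35 in WT neocortex (exact permutation test, p = 0.0794, adjusted p = 0.317).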

How the data were processed

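Libraries of 20 samples were analysed, 5 in each of 4 groups taken from the labels. The authors pseudo-aligned the reads with kallisto to the mouse GRCm38 transcriptome and deposited estimated counts and TPM for each of 115270 transcripts. The submitters' processing notes name GRCh38, but the deposited identifiers are those of mouse transcripts, and the kallisto version is not given in the sources used here. By identifier, 113580 transcripts matched the GENCODE M21 annotation. The others held at most 0.556% of a library's counts and were dropped. Gene sums were rounded to whole numbers.

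Each comparison was fitted on its 10 libraries in edgeR 4.0.16 (R 4.3.3, limma 3.58.1) with filterByExpr, TMM scaling and the quasi-likelihood test, adjusted by Benjamini-Hochberg over every gene tested, with a threshold of 0.05. All 20 entered the interaction. DESeq2 1.42.0, which the authors used after Tximport, was an alternative, and both tools were tested on simulated data. Shares were compared by exact permutation tests (smallest p for 5 against 5 0.00794, scipy 1.17.1), and sequences with blastn 2.17.0. Errors cover the spread between samples, which may in part be technical, and leave out how kallisto divides shared reads. Between replicates of a group the mean chi-square per gene was 4.83 to 22.4 over 40 pairs, so every library was counted separately.

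Members and gene lists were chosen with earlier results of these data known. The genes named are the members, their copies, the wider complement genes that were called or were the 3 highest in TPM of a list, and the 5 most like *C1s1* and *C1qb*. *Gfap* and *Ttr* were singled out from the marker lists after their values were seen. Other alternatives were another normalization, looser and stricter filters, length offsets, a replicate block, copies summed and each replicate left out. Leaving out 3 libraries and the marker covariate were chosen after seeing the data.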

Additional observations from a re-analysis of the deposited data

Results flagged for a closer look

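In 48 groups of 5 values, 2 had a library far from the other 4, while chance gives about 1 in 20 groups, or 2.4 here. *C3* stood at 5.52 CPM in WT hippocampus replicate 3, apart from the other WT hippocampus libraries. *C1qc* stood at 41.1 CPM in miR-324-null neocortex replicate 4, above the other null neocortex libraries.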

How the results depend on the processing

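Of 1768 values recomputed under alternatives, 1686 stayed on their side of the threshold or moved by less than the replicate spread, 29 others changed sign, 24 lost a call, 15 gained one and 14 moved. Between genotypes in the hippocampus, 1 member (*C1qb*) was called by DESeq2, by DESeq2 with a transcript length offset and with all 20 samples in 1 fit, against 0. These fits called 0.939%, 0.574% and 0.539% of all genes, against 0.115%. In the neocortex 0 members were called with a length offset in edgeR and with the neocortical marker covariate, against 1. Those fits called 0.201% and 0.221% of all genes, against 0.315%. With a replicate left out 1 to 3 were called, 3 (*C1ra*, *C1s1*, *C3*) without miR-324-null neocortex replicate 5. That fit called 3.76% of all genes, and nothing is read from these counts, since the contrast chose *C1s1*. Of the wider list in the neocortex, 1 gene (*Sez6*) was called by DESeq2, beside 1.61% of all genes, and 0 to 1 with a replicate left out. With a replicate left out, hippocampal genotype differences (log2) ranged from -0.123 to 0.0213 for *C1qa*, -0.15 to 0.26 for *C1ra*, -0.471 to 0.0739 for *Serping1* and -0.207 to 0.0142 for *C3ar1*. Chain share differences between tissues (percentage points) ranged in WT from -0.654 to 0.0662 for *C1qb* and -0.768 to 0.0322 for *C1qc*, and in null samples from -0.269 to 1.84 for *C1qa* and -0.525 to 0.559 for *C1qc*. Transcript share differences ranged from -3.30 to 1.496 for *Serping1* in the hippocampus, -10.5 to 11.04 for *C3* between WT tissues and -5.10 to 13.3 for *C1s1* between null tissues. Without the 3 libraries of high *Ttr* the null tissue difference of the *C1qc* share was -0.455 and the WT tissue difference of the *C3* share -2.48. None of the changes of sign given here concerned a called value, and the causes were not tested. *C3* was dropped by the filter of 10 counts in the comparisons that held WT neocortex, where its lowest count was 4, and *C4b* could not be summed with *C4a*. Replicate numbers were not taken as pairs. Between tissues, correlations of same-numbered deviations ran from -0.133 to 0.110 in WT and from -0.0189 to 0.248 in null samples. There 2 of 5 and 3 of 5 samples correlated best with their own number. Between genotypes, where equal numbers cannot be 1 mouse, 1 of 5 did so in each tissue. These values do not settle whether equal numbers are 1 mouse, and the tissue tests treat libraries as unpaired. With the number as a replicate block, members called went from 4 to 5 between WT tissues and from 2 to 3 between null tissues, and stayed at 0 and 1 between genotypes. The counts between WT tissues and in the neocortex hold *C1s1*, for which no test is given. Depth limits *C3*, *C1s1* and *C3ar1*, whose levels are low.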
